A study of Mus musculus with 10 samples.

Results

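The lysosome and endosome genes described here are 35 genes fixed by name, and their members on the arrays are all probe sets annotated to exactly 1 of those symbols. A probe set is a group of short probes on the array that report on 1 transcript region. On the MOE430A array 63 of 22626 probe sets, from 34 genes, belonged to them, and on the MOE430B array 16 of 22511, from 12 genes. No probe set used here was annotated to Cd63 alone, so that tetraspanin of late endosomes was not analysed. RNA came from mouse embryos at embryonic day 5.5, from matings of B6SJLF1 mice with the CerlP-GFP line, in which green fluorescent protein marks the anterior visceral endoderm. The Ad group is the anterior distal fragment, which holds the fluorescent visceral endoderm and the epiblast under it. The Pp group is the posterior proximal fragment, visceral endoderm and epiblast cut from the opposite side just below the border with the extraembryonic region, and the last group is the whole embryo. All 3 groups share the genotype and had no treatment, and each array type was run on 2 Ad samples, 2 Pp samples and 1 sample of whole embryo. The labels do not say whether replicates came from separate or pooled embryos, so the p-values cover no more than the spread among these samples, which may be technical.

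Lysosomes are acidic compartments that break down proteins, glycans and lipids taken up by endocytosis or delivered by autophagy. A proton-pumping ATPase acidifies them, receptors sort new enzymes to them from the Golgi, and Rab GTPases direct the traffic of endosomes that fuse with them. In the early mouse embryo the visceral endoderm is the absorptive epithelium, and it digests maternal proteins and lipids in large apical endosomes and lysosomes. Many lysosomal genes are regulated by the transcription factor Tfeb and its relatives, which bind a palindromic site built around an E-box, CACGTG.

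Promoter windows are shown because they carry that site in some members and not in others, and the groups so formed recur below. RefSeq windows of 300 bases on GRCm38.p6, from 250 bases before the transcription start to 50 after it, matched 28 of the 35 genes. CACGTG, which reads the same on both strands, was in a window of 10 of these 28 genes (35.7%), against 8.09% of the 27025 genes with a window and 7.15% of the 32851 windows. These 10 were Lamp1, Ctsa, Ctsd, Ctsl, Lgmn, Gaa, Glb1, Atp6v0d1, Atp6v1a and Rab5a. The longer palindrome TCACGTGA, which contains CACGTG, was in 5 of the 28 (17.9%), namely Ctsa, Ctsd, Atp6v0d1, Atp6v1a and Rab5a, against 1.12% of all genes and 0.974% of all windows. The windows of 5 genes follow, 5′ to 3′ on the gene's strand, with each CACGTG in capitals. Lamp1 had 4 matches, between 61 and 15 bases before the start, Ctsd had 2 and Atp6v1a had 1, while Gm2a and Grn had 0. A match is a description of these letters and no evidence of binding, and a window without it says nothing of the factor.
Lamp1, chr8:13158911-13159210, strand +: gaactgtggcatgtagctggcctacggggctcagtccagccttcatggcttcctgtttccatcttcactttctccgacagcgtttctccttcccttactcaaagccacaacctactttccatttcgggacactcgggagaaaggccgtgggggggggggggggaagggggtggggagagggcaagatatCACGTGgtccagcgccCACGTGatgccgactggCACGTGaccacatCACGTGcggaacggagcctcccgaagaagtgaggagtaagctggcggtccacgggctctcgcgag
Ctsd, chr7:142387778-142388077, strand -: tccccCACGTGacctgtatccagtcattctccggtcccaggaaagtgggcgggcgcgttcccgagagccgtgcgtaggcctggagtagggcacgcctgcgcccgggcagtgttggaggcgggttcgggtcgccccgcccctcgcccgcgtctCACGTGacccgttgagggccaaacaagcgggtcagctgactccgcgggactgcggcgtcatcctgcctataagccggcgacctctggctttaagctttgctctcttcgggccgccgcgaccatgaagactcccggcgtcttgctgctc
Atp6v1a, chr16:44139210-44139509, strand -: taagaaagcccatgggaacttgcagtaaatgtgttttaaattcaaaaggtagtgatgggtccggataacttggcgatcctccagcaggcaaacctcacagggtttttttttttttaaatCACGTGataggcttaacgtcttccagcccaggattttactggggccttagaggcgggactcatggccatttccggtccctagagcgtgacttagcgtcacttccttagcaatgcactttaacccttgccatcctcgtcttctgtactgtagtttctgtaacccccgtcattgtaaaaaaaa
Gm2a, chr11:55097735-55098034, strand +: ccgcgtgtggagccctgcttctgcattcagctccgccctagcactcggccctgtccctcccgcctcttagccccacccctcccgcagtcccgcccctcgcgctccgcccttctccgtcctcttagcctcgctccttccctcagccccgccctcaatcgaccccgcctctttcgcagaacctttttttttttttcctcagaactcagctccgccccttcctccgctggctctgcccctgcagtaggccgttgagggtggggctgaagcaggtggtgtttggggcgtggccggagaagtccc
Grn, chr11:102430257-102430556, strand +: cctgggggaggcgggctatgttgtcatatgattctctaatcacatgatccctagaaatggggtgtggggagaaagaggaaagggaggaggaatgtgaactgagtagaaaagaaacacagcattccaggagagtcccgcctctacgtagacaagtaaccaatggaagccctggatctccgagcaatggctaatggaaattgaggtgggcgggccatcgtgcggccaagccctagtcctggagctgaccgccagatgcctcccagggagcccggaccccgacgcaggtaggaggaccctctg

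Signal is the deposited MAS5 intensity in arbitrary units, and fitted differences are on the scale of log2(signal + pseudocount), which draws the differences of faint probe sets towards 0. Fold differences are fitted on that scale after the arrays were centred, so they are not ratios of the printed signals. The pseudocount differs between the array types, so fold sizes do not compare directly across them. Probe sets were tested where their average exceeded the 40th percentile, corresponding to 464 signal units for MOE430A and 37.2 for MOE430B. A difference was called at an adjusted p under 0.05 (limma, two-sided, Benjamini-Hochberg over all tested probe sets of the array type). Of the member probe sets, 55 of 63 on MOE430A (33 genes) and 10 of 16 on MOE430B (8 genes) were tested. Neu1, the sialidase gene, had 3 probe sets on MOE430A and none was bright enough. Unless another is named, a gene is given by its brightest tested probe set. The dissection label was checked on Cer1, whose promoter drove the reporter: its fainter probe set read 3681 and 3670 in the Ad arrays, 283 and 288 in the Pp arrays and 742 in the whole embryo. Of 8 anterior visceral endoderm markers on MOE430A, 3 were called higher in Ad and 0 lower. By the brightest probe set of each, that of Cer1 included, their fitted differences ran from 0.02 to 2.20.

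The study asked which genes have more RNA in Ad than in Pp, and none of the lysosome and endosome genes was called between the fragments. On MOE430A 0 of 55 member probe sets passed (smallest adjusted p = 0.311), where 0.169% of all tested probe sets passed and 0.00737% were lower in Ad, and 7 had an unadjusted p under 0.05, against 11.7% of all. On MOE430B 0 of 10 passed (smallest adjusted p = 0.423), where 0.111% of all passed and 0.0074% were lower in Ad, and 2 had an unadjusted p under 0.05, against 10.4% of all. The median difference of the 55 probe sets was -0.02, against -0.03 over all tested probe sets. The 95% interval of the difference was taken gene by gene, by the brightest probe set of each. It lay within 2-fold either way for 33 of 33 genes on MOE430A and 8 of 8 on MOE430B. The same held for 99.1% and 95.2% of all tested genes. Fainter tested probe sets had intervals that reached past 2-fold for Ctsb on MOE430A (-1.14 to -0.25) and Ctsc on MOE430B (0.18 to 1.06). The Ad and Pp arrays did not overlap for 21 of 55 member probe sets on MOE430A (9 higher in Ad, 12 lower), against 45.4% of all. On MOE430B that held for 5 of 10, against 42.8% of all.

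**Figure D1:**
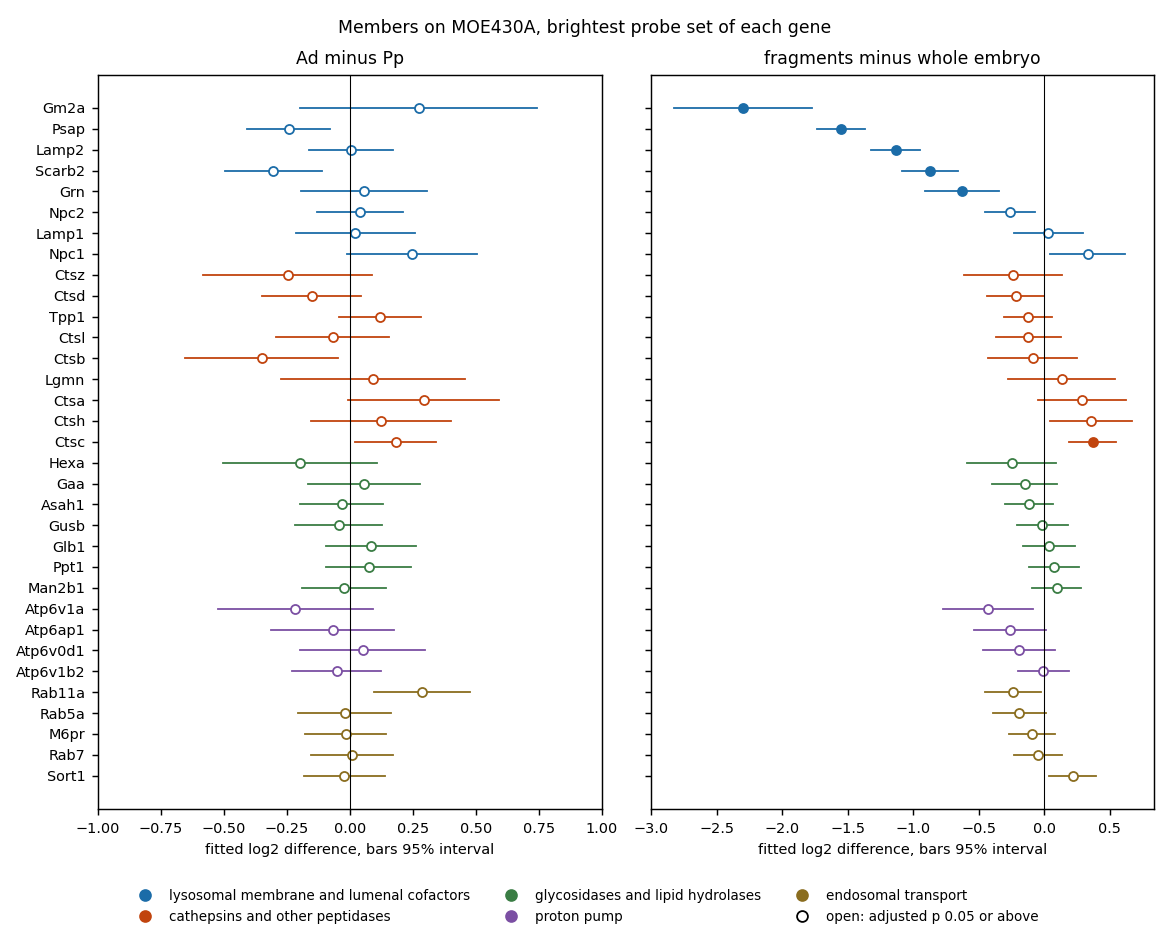
Fitted log2 differences (points) with 95% intervals (bars) for the 33 members tested on MOE430A, coloured by role, for Ad minus Pp on the left and for the 4 fragment arrays minus the whole embryo on the right. On the left every point is open (adjusted p of 0.05 or above); on the right the filled points are Gm2a, Psap, Lamp2, Scarb2 and Grn below 0 and Ctsc above 0.

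Among peptidases the difference between fragments was largest for Ctsb, which encodes the lysosomal cysteine protease cathepsin B. Its brightest probe set read 10102 and 8486 in Ad and 10302 and 12423 in Pp, with 11528 in the whole embryo (Ad minus Pp -0.35, 95% interval -0.65 to -0.05, adjusted p = 0.386). The next brightest Ctsb probe set read 3240 and 2637 in Ad against 3874 and 5590 in Pp (-0.70 ± 0.18, SE; adjusted p = 0.311). All 3 tested Ctsb probe sets were lower in both Ad arrays than in both Pp arrays once the arrays were centred, and none was called. Of all tested probe sets on MOE430A, 45.4% did not overlap, either way. Ctsz, a carboxypeptidase cathepsin, read 6355 and 6047 in Ad and 6113 and 8116 in Pp (-0.25, adjusted p = 0.528), and these signals overlapped until the arrays were centred. Its highest fragment value was that of Pp replicate 2, near the whole embryo's 8284. Ctsb and Ctsz depended on which Pp array was kept. With 1 Pp array left out, the spread comes from the Ad pair alone and the remaining Pp array is assumed to vary like it. Without Pp replicate 1, 6 member probe sets were called lower in Ad (2 of Ctsb, 3 of Ctsz and 1 of Atp6v1a), where 2.52% of all tested probe sets were called lower. Without Pp replicate 2, Ctsa was called higher in Ad (0.47, adjusted p = 0.00887) and 1 probe set of Ctsb lower (-0.44, adjusted p = 0.0384), where 2.87% of all were called higher and 0.832% lower. The 8 extraembryonic ectoderm markers summed to 14546 in Pp replicate 2, to between 8677 and 9135 in the other 3 fragment arrays, and to 16580 in whole embryo, and their part in these values was not tested.

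Ctsa and Ctsc had more signal in Ad without a call. Ctsa, whose serine carboxypeptidase also stabilises beta-galactosidase and sialidase, read 3028 and 2972 in Ad, 1999 and 2597 in Pp and 2233 in the whole embryo (0.29, 95% interval -0.01 to 0.59, adjusted p = 0.431). Ctsc, a dipeptidyl peptidase that activates serine proteases, read 12557 and 12427 in Ad and 10324 and 10609 in Pp (0.18 ± 0.07, SE; adjusted p = 0.392). Both Ctsc probe sets of MOE430B were also higher in both Ad arrays, with differences of 0.44 and 0.62 (adjusted p = 0.423 for each). The brighter of these read 134 and 134 in Ad, 95.3 and 86.1 in Pp. Ad thus lay above Pp for 3 of 3 Ctsc probe sets. Over all tested probe sets, 45.4% on MOE430A and 42.8% on MOE430B did not overlap, either way. Ctsh, an aminopeptidase, read 9359 and 8982 against 7186 and 8919 on MOE430A and 4427 and 4073 against 3034 and 3828 on MOE430B (0.12 and 0.24, adjusted p = 0.694 and 0.639). The other peptidases were not called either. The aspartic protease gene Ctsd was at -0.15, the legumain gene Lgmn at 0.09, the tripeptidyl peptidase gene Tpp1 at 0.12, and Ctsl, an endopeptidase, at -0.07, with 12024 and 12045 in Ad and 11183 and 12954 in Pp.

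Genes of the lysosomal membrane and of lumenal cofactors also showed no call between fragments. Scarb2, which encodes the membrane receptor that carries glucocerebrosidase to the lysosome, read 1458 and 1268 in Ad and 1640 and 1651 in Pp (-0.30, 95% interval -0.50 to -0.11, adjusted p = 0.311). Psap, the precursor of the saposins that help hydrolases reach sphingolipids, read 2862 and 2955 in Ad and 3376 and 3258 in Pp (-0.24, adjusted p = 0.330). For both genes each Pp array was above each Ad array. Gm2a, which encodes the protein that presents GM2 ganglioside to hexosaminidase, read 1089 and 1744 in Ad and 970 and 1115 in Pp, and the groups overlapped (0.27, adjusted p = 0.605). Npc1 and Npc2 act together in cholesterol export. Npc1 read 674 and 501 in Ad and 418 and 422 in Pp (0.25, adjusted p = 0.435), and Npc2 was at 0.04 (adjusted p = 0.833). Lamp1 and Lamp2, the abundant membrane glycoproteins, were at 0.02 and 0.00 (adjusted p = 0.946 and 0.984). Grn, the progranulin gene, was at 0.06 (adjusted p = 0.844).

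No endosomal or proton pump gene was called between the fragments. Rab11a, of recycling endosomes, read 3827 and 3388 in Ad and 2804 and 2726 in Pp (0.29, 95% interval 0.09 to 0.48, adjusted p = 0.330), while its other probe set went the opposite way (-0.14). The early endosome gene Rab5a (-0.02), the late endosome gene Rab7 (0.01), the mannose 6-phosphate receptor gene M6pr (-0.02) and the sorting receptor gene Sort1 (-0.02) lay near 0. The 4 pump genes ran from -0.22 (Atp6v1a, adjusted p = 0.540) to 0.05 (Atp6v0d1, adjusted p = 0.859). The 7 tested glycosidase and lipid hydrolase genes ran from -0.20 (Hexa, a hexosaminidase subunit) to 0.08 (Glb1, beta-galactosidase). On MOE430B, Ppt1, which removes palmitate from proteins, was at -0.31 (222 and 188 in Ad, 231 and 252 in Pp; adjusted p = 0.541), and Npc2 was at 0.19 (adjusted p = 0.727). Those arrays add little independent evidence: over the 100 probe sets on both types, each MOE430A array deviated most like 1 MOE430B array of the same group (correlation 0.41 to 0.92 across probe sets), and the labels do not say whether those pairs share RNA.

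The whole embryo had more signal than the fragments for a set of lysosomal membrane and cofactor genes. The roles were drawn up with earlier results of these data known, so counts by role describe that grouping and test nothing. On MOE430A 5 of the 8 tested genes of the membrane and cofactor role were lower in the fragments: Gm2a, Psap, Lamp2, Scarb2 and Grn. Together they gave 10 of 55 member probe sets called lower (18.2%), where 5.18% of all tested probe sets were, and 1 called higher, Ctsc, where 4.6% were (9.78% either way). On MOE430B 2 of 10 were lower, Psap and Npc2, where 1.81% of all were, and 0 were higher (0.407% of all), with 2.21% of all called either way. In that limma fit 2 member probe sets were higher in the fragments at an unadjusted p under 0.05, 1 of Ctsc and 1 of Ctsh, against 9.04% of all. On MOE430A that held for 6 of 55, against 16.2% of all. There was 1 whole-embryo array per type, so its own spread is unknown and was assumed to equal that of the fragments. In bulk RNA, fewer cells of a type and less RNA per cell cannot be told apart.

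**Figure D2:**
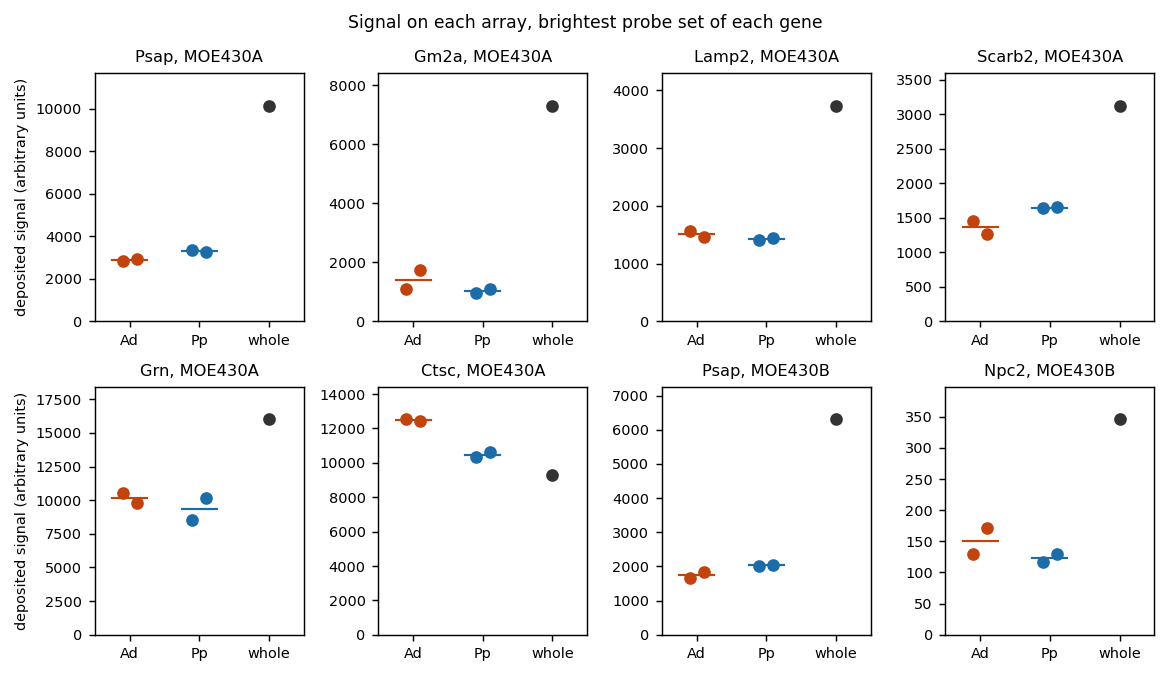
Deposited signal on each array (points, arbitrary units, axes from 0) in Ad, Pp and the whole embryo, with a bar at the mean of each pair, for the genes called between fragments and whole embryo. The whole-embryo point lies above all 4 fragment points for every gene shown except Ctsc, where it lies below them.

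Psap read 2862 to 3376 in the 4 fragment arrays (3113 ± 244, SD, n = 4) and 10146 in the whole embryo, a fitted 2.93-fold difference (adjusted p = 0.000511). The same probe set on MOE430B read 1651 and 1839 in Ad, 2010 and 2044 in Pp and 6315 in the whole embryo, a fitted 3.37-fold difference (adjusted p = 0.00368). A second Psap probe set on MOE430A read 1043 ± 110 (SD, n = 4) against 2334, 1.90-fold (adjusted p = 0.0071). The whole embryo thus stood above every fragment array in all 3 measurements. Gm2a read 1230 ± 349 (SD, n = 4) against 7315, a 4.93-fold difference (adjusted p = 0.00347). Its second probe set differed less, 1450 ± 153 against 1965 (1.24-fold), and was not called (adjusted p = 0.0909). The gene's size of difference therefore depends on the probe set. Hexa, whose product works with the GM2 activator, read 6772 ± 803 (SD, n = 4) against 8521, with no call (-0.25, adjusted p = 0.304).

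Lamp2 read 1470 ± 67.7 (SD, n = 4) across fragments and 3735 in whole embryo, 2.20-fold (adjusted p = 0.00103). Its other tested probe sets were called too, at 2.36-fold and 1.59-fold, and the last lost its call without Ad replicate 1 or Ad replicate 2 (adjusted p up to 0.0664). Lamp1, its close relative, read 10303 ± 831 (SD, n = 4) against 10644 (0.03, adjusted p = 0.879), so that only Lamp2 of this pair was called; the difference between them was not tested. Scarb2 read 1504 ± 181 (SD, n = 4) against 3125, 1.83-fold (adjusted p = 0.00453). Grn read 9757 ± 868 (SD, n = 4) against 16038, 1.54-fold (adjusted p = 0.0286). Its 3 probe sets were all called, from 1.5-fold to 2.31-fold, and the names of 2 of them, including the brightest, mark probes that may detect other transcripts. Those 2 lost their calls without Ad replicate 1 or Ad replicate 2 (adjusted p up to 0.133 for the brightest and 0.084 for the other). Npc2 was called only on MOE430B, where it read 137 ± 24.1 (SD, n = 4) against 347, 2.46-fold (adjusted p = 0.0229), and that call was lost without either Ad array (adjusted p up to 0.0908) or with no filter (0.0719). On MOE430A it read 13928 ± 763 against 17711 (1.2-fold, adjusted p = 0.0948) and 7567 ± 565 against 11035 (1.37-fold, adjusted p = 0.0615). Npc1, its partner, went the other way without a call (504 ± 120 against 377; 0.33, adjusted p = 0.139).

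**Figure D3:**
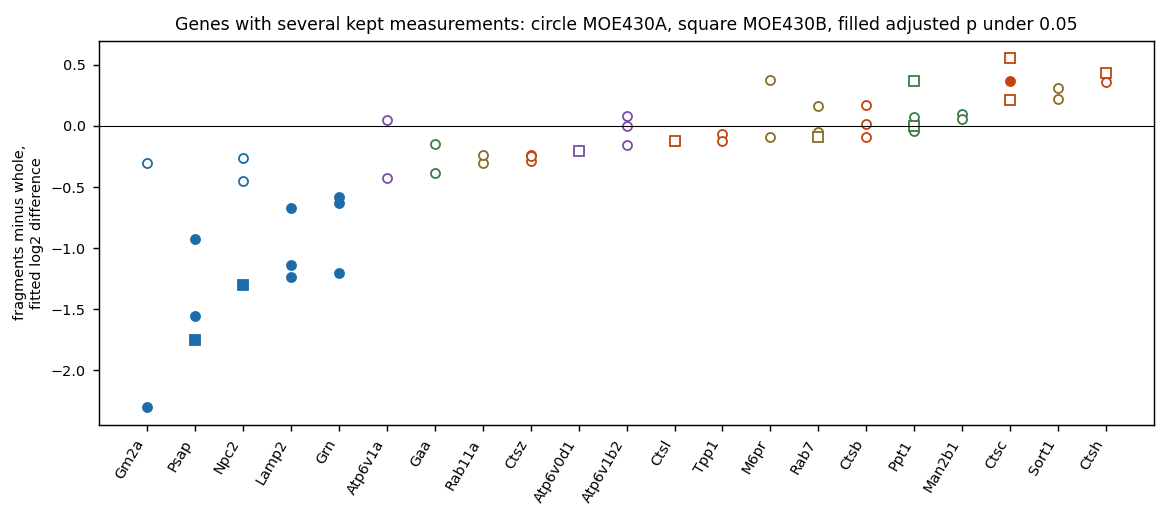
Fitted log2 difference of fragments minus whole embryo for each tested probe set of the members with several measurements (circles MOE430A, squares MOE430B, colours by role as in the plot of both comparisons, filled where adjusted p is under 0.05). Gm2a spreads from -2.30 to -0.31 and Npc2 from -1.30 to -0.26, whereas the Lamp2 and Grn probe sets are all filled and below -0.5.

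Among degradative enzymes few members were called, as among all tested genes on MOE430A, where 5.7% were lower in the fragments and 4.54% higher. The difference of these enzymes from the membrane and cofactor genes was not tested. Of the 9 peptidase genes on MOE430A 0 were called lower in the fragments and 1 was called higher, with a median of -0.09. Of the 7 tested glycosidase and lipid hydrolase genes 0 were called (median -0.01), from -0.25 for Hexa to 0.10 for Man2b1, an alpha-mannosidase gene. Ctsc read 11479 ± 1177 (SD, n = 4) across fragments and 9297 in whole embryo, 1.29-fold higher (adjusted p = 0.0357), with the Ad arrays at the top and the Pp arrays between. That call was lost with no centring (adjusted p = 0.0654), with no pseudocount (0.0529), with the replicate number as a block (0.0817), and without Ad replicate 1 (0.134) or Ad replicate 2 (0.154). Ctsh was at 0.36 and Ctsa at 0.29 without a call (adjusted p = 0.141 and 0.238). Ctsd was at -0.22, Ctsz at -0.24, Ctsl at -0.12 and Ctsb at -0.09 (adjusted p = 0.186 to 0.721). The acid ceramidase gene Asah1 (-0.12), the acid alpha-glucosidase gene Gaa (-0.15), Ppt1 (0.08), Glb1 (0.04) and the beta-glucuronidase gene Gusb (-0.01) were not called either.

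The proton pump and the endosomal genes were also not called against the whole embryo. On MOE430A that was 0 of 4 and 0 of 5 genes, where 5.7% of all tested genes were lower and 4.54% higher. The pump genes ran from -0.43 for Atp6v1a, a subunit of the catalytic domain (3283 ± 429, SD, n = 4, against 4747; adjusted p = 0.118), to -0.00 for Atp6v1b2. The accessory subunit gene Atp6ap1 was at -0.26 and Atp6v0d1, of the membrane domain, at -0.19. Atp6v0d1 and Rab7, measured with the same probe set on both array types, gave -0.19 and -0.05 on MOE430A and -0.21 and -0.09 on MOE430B. The endosomal genes ran from -0.24 for Rab11a to 0.22 for Sort1. M6pr was at -0.09, and its second probe set at 0.38 (adjusted p = 0.0551). Over all 33 genes the median was -0.12, against 0.04 over all tested genes, and the whole embryo was above all 4 fragments for 28 of 55 member probe sets, against 22.7% of all, and below all 4 for 8, against 38.5%. On MOE430B it was above all 4 for 3 of 10, against 23.5% of all, and below all 4 for 3, against 28.8%.

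The called genes can be set beside the promoter windows shown above. Of the 28 members with a window, 7 were called between fragments and whole embryo on either array type, and 0 of these 7 held CACGTG. Over all genes with a window 8.09% held it, so 0 of 7 is near that share. The 7 include Ctsc, which was higher in the fragments, and Npc2, called only on MOE430B. Of the 19 other tested members with a window, 10 held it. The 5 genes with the longer TCACGTGA were all among these 19 members without a call. Only 7 of the 28 members with a window were called, so 5 genes without a call are near the share of all these members. These counts describe 300-base windows and were not tested, and the printed windows were picked as examples.

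Some lists of markers of other cells also differed between the fragments and the whole embryo, and others had few calls. On MOE430A 5.7% of all tested genes were lower in the fragments and 4.54% higher. On MOE430B these shares were 2.59% and 0.462%. Of the 10 tested decidual stroma genes (decidua is the maternal tissue around the implanted embryo) 6 were lower in the fragments on MOE430A, among them the prolactin family gene Prl8a2 (254 and 564 in Ad, 241 and 267 in Pp, 6063 in the whole embryo). Esr1 (0.15), Pgr (0.06) and the brightest Des probe set (0.12) leaned the other way without a call. A fainter Des probe set read 457 to 550 in fragments and 5953 in whole embryo (-2.99, adjusted p = 0.00027). The 10 summed to between 5687 and 6862 per fragment array and to 22244 in whole embryo. On MOE430B 3 of 3 were lower, with sums of 208 to 325 and 5212. Of 6 tested blood and macrophage genes 1 was lower, Csf1r at -0.34, with sums of 6380 to 6768 and 8060. Several markers on this list were too faint on average to test. Of these, Ptprc read at most 194 in a fragment and 223 in whole embryo, Cd68 235 and 281, and C1qa 397 and 391. Lyz1, a lysozyme gene, differed more: its 3 probe sets read 139 to 145, 95.8 to 114 and 200.1 to 269 across fragments, and 629, 549 and 185 in whole embryo. A faint Csf1r probe set read 325 to 391 and 659. The second tested Csf1r probe set leaned the other way, at 1147 on average in fragments and 1072 in whole embryo (0.16, adjusted p = 0.358). Epiblast genes (5 of 7 higher in the fragments, 0 lower) and some visceral endoderm genes (4 of 17 higher, 0 lower) went the other way. The whole embryo was below all 4 fragments for 9 of these 17 visceral endoderm genes and above all 4 for 2. Those 2 were Sox17 (-0.62, adjusted p = 0.0762) and Dab2 (-0.14, adjusted p = 0.310). Of 6 parietal endoderm genes 4 were lower. Of 8 extraembryonic ectoderm genes 1 was lower, Hand1 (-2.24, adjusted p = 0.0201), while Elf5 was at -1.32 (adjusted p = 0.194), and of 2 tested ectoplacental cone genes 1 was lower, Plac1 (-0.67, adjusted p = 0.00676). These counts use the brightest probe set of each gene. Fainter Tfap2c probe sets were called lower too (-1.14 and -2.15, adjusted p = 0.038 and 0.049). A fainter Cdx2 probe set went the other way without a call (0.28, adjusted p = 0.0718). The ratio of 3′ to 5′ signal of the Actb control, a sign of RNA length, on MOE430A lay between 3.69 and 4.50 for fragments, with 5.87 for whole embryo. On MOE430B it lay between 3.51 and 3.79, with 4.22 for whole embryo. The ratio of the Gapdh control lay between 1.40 and 1.57 on MOE430A, with 1.60 for whole embryo. On MOE430B that ratio lay between 1.19 and 1.34, with 1.49. The part of these in the lysosomal differences was not tested.

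**Figure D4:**
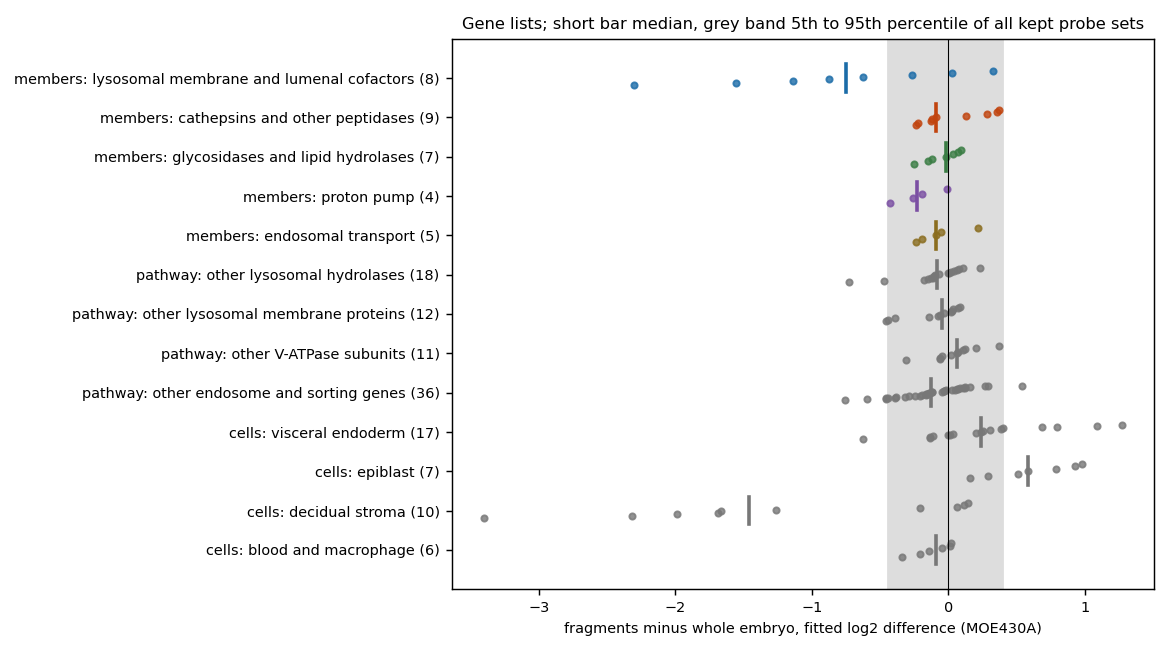
Fitted log2 difference of fragments minus whole embryo on MOE430A for each tested gene (points) by list, with the median as a short bar and the number of genes in brackets; the grey band runs from -0.44 to 0.41, the 5th to 95th percentile of all tested probe sets. The members with a lysosomal membrane or cofactor role have a median of -0.75 and the decidual stroma genes one of -1.46, while the other member roles lie between -0.23 and -0.01.

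Other genes of the pathway, from lists of 112 genes, gave a like picture between the fragments. Of 77 tested on MOE430A and 31 on MOE430B, 0 were called between Ad and Pp in limma, and 8 and 2 had an unadjusted p under 0.05 (10.4% and 6.45%, against 11.7% and 10.7% of all tested genes). On MOE430A the largest differences in each list were Dpp7 (-0.44), Manba (-0.41), Gla (0.22) and Fuca1 (0.16) among hydrolases, and Tmem192 (-0.22), Cln3 (-0.19), Hgsnat (0.09) and Slc11a2 (0.03) among membrane proteins. Among pump subunits they were Atp6v1h (-0.28), Atp6v0a1 (-0.20), Atp6v1f (0.24) and Atp6v0a2 (0.19), and among endosome and sorting genes Gnptab (-0.45), Gga2 (-0.25), Rab21 (0.21) and Vps35 (0.19).

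Against the whole embryo, 8 of the 77 genes were lower in the fragments (10.4%, against 5.7% of all tested genes) and 2 were higher (2.6%, against 4.54%). The lower ones included Ctsk, a cysteine protease gene, which read 626 and 586 in Ad, 600 and 570 in Pp and 1224 in the whole embryo (-0.72, adjusted p = 0.00492). Gnptab, which encodes the enzyme that begins the mannose 6-phosphate tag, read 539 and 598, 761 and 875, and 1416 (-0.76, adjusted p = 0.0114). The acid sphingomyelinase gene Smpd1 (-0.47), the cobalamin export gene Lmbrd1 (-0.39), the sorting nexin gene Snx1 (-0.59), the adaptor gene Ap3b1 (-0.45), Rab31 (-0.44) and the endocytic receptor gene Lrp1 (-0.45) were lower too, with adjusted p of 0.0124 to 0.0473. The higher ones were Atp6v1f, a pump subunit gene (0.38, adjusted p = 0.0332), and Rab4a, of recycling endosomes (0.54, adjusted p = 0.0417). On MOE430B 1 of 31 was lower (3.23%, against 2.59% of all tested genes), the cathepsin O gene Ctso, at 159 to 181 across fragments and 493 in whole embryo (-1.49, adjusted p = 0.00688). None of the 8 placental cathepsin genes was bright enough to test on MOE430A, and on MOE430B only Cts8 was (-0.38, adjusted p = 0.300). By list on MOE430A, the counts lower and higher were 2 and 0 of 18 hydrolases, 1 and 0 of 12 membrane proteins, 0 and 1 of 11 pump subunits, and 5 and 1 of 36 endosome and sorting genes.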

How the data were processed

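The authors deposited linear probe set intensity from MAS5, per the submitters' processing notes. No source used here gives its version, scaling target or genome build. RNA was linearly amplified, per the labels' protocols. The number of arrays limits the precision. In R 4.3.3 with limma 3.58.1, each array type was analysed alone: 64 control probe sets left out, the 20th percentile (248 on MOE430A, 10.5 on MOE430B) added, log2 taken, probe sets above the 40th percentile of mean log2 kept (13575 and 13506), and each array centred on its median. The contrasts Ad minus Pp, and fragments (Ad and Pp weighted equally) minus whole embryo, were fitted with lmFit and eBayes (2 residual degrees of freedom), after the fit was tested on simulated data.

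Platform annotation named the probe sets, and 63 of 63 and 16 of 16 member symbols matched RefSeq (GRCm38.p6). Members given with every value are those called in either comparison and the 6 with the largest Ad minus Pp difference per type; pathway genes are named when called or among the 2 largest each way. Members and lists were chosen with earlier results of these data known. Alternatives changed centring, normalization, pseudocount, filter, variance trend, replicate block, ambiguous probe sets and each fragment array.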

Additional observations from a re-analysis of the deposited data

Results flagged for a closer look

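A Gm2a probe set on MOE430B was too faint on average to be tested, yet its whole-embryo signal was 248, while each of the 4 fragment arrays read exactly 1. It was picked out because its whole-embryo signal lay above the level for testing and its fragment signals in the lowest 20 percent of values. With no filter it was called (log2 difference -4.53, adjusted p = 0.00223), a size that rests on the pseudocount.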

How the results depend on the processing

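The counts of member probe sets kept within 1.5 times of their main value under every alternative that kept all arrays, except the single higher call on MOE430A (Ctsc), which went to 0 with no centring, 0 with no pseudocount and 0 with the replicate block. The block changed no other call among the genes named; nothing in the labels pairs equal replicate numbers, and deviations of equal numbers correlated at -0.24 on MOE430A and -0.04 on MOE430B. Paired crosswise on MOE430A, an alternative chosen after seeing the data, 0 were called between Ad and Pp, 12 lower and 1 higher than the whole embryo. Leaving out 1 array in turn, the calls between Ad and Pp on MOE430A ran from 0 to 6, those lower than the whole embryo from 7 (without either Ad array) to 21 (without Pp replicate 2), and those higher from 0 (without either Ad array) to 7 (without Pp replicate 1). Over all tested probe sets the lower share was then 1.92% or 1.79% without an Ad array and 11.3% without Pp replicate 2, and the higher share was 13% without Pp replicate 1. All 10 main lower calls were among the 21. On MOE430B the lower calls ran from 1 (Psap, without either Ad array) to 2 (0.733% to 4.4% of all), and Npc2 was also lost with no filter (adjusted p = 0.0719). Psap, Gm2a, Lamp2 and Scarb2, by their brightest probe sets, kept theirs on MOE430A under every alternative that held those probe sets. The single whole-embryo array could not be left out.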
